A study of Mus musculus with 8 samples.

Results

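The genes described here are the variable segments of the T cell receptor alpha chain (symbols starting with Trav) and beta chain (symbols starting with Trbv) in natural killer T (NKT) cells of the mouse thymus. They were chosen by symbol alone, which gave 140 of the 27179 genes in the count table, 116 Trav and 24 Trbv. RNA was sequenced from 8 samples on the C57BL/6 background, 4 wild-type (WT) and 4 Ezh2 knock-out (Ezh2-KO). Ezh2 is the histone methyltransferase of Polycomb repressive complex PRC2. Each genotype had CD44+ NK1.1- cells from 2 biological replicates, 1 sample of CD44+ NK1.1+ cells and 1 sample of CD44- NK1.1- cells. How Ezh2 was deleted, in which cells, and whether animals were pooled is not given in the sources used here.

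A T cell receptor chain is made by joining 1 variable segment to a joining segment, with a diversity segment between them in the beta chain, ahead of a constant region. The joined product is made at a high level, so reads on a variable segment are a guide to which receptors a population of cells uses. Not every read stands for a receptor in use. Trav11n and Trbv24, listed as pseudogenes, had 99 and 112 reads over all libraries. Type I NKT cells recognise lipids shown by CD1d, and are known for a nearly invariant alpha chain in which Trav11 (Vα14 in the older naming) is joined to Traj18. Their beta chains are more varied, and favour Trbv13-2, Trbv29 and Trbv1. Trav1 is the segment of the invariant alpha chain of another lymphocyte, the mucosal-associated invariant T cell. Trbv29 was not analysed here, and every Trbv total, share and summed level below leaves it out. Trbv shares are thus not shares of the whole set of beta chains.

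Library depth ranged from 20308745 to 22995090 counts, of which 3751 to 9701 fell on Trav and 8983 to 14352 on Trbv segments. Of the 140 segments, 11 had no read in any library (9 Trav and 2 Trbv) and 23 had fewer than 10 reads in all. The filter on low counts kept 90 for testing, 69 Trav and 21 Trbv. Ezh2 itself stood at 57.2 to 136 CPM (reads of the gene scaled to a common library total) in WT and 40.4 to 83.3 CPM in Ezh2-KO libraries, and was lower in Ezh2-KO in each subset. Over the 3 subsets its log2 change was -0.56 (SE 0.07, adjusted p 0.00402, edgeR quasi-likelihood test), and these counts do not show which part of the gene was deleted. Zbtb16, which encodes the NKT cell factor PLZF, had 2365 to 9979 reads in every library, and the alpha constant gene Trac had 11944 to 28902. The 5 NKT markers listed did not move together. In Ezh2-KO CD44+ NK1.1- cells Il2rb was lower (log2 change -1.16, edgeR adjusted p 0.0303) and Slamf6 higher (0.55, 0.0303). In CD44+ NK1.1+ against CD44+ NK1.1- cells Il2rb, Trac and Cd3e were higher, and Zbtb16 (-1.03) and Slamf6 (-1.49) lower. Summed over lists of markers, those of double positive thymocytes reached 62.7 to 117 CPM, of B cells 0.899 to 4.78 CPM and of myeloid cells 3.65 to 8.45 CPM. Those of gamma-delta T cells reached 793 to 1890 CPM.

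The alpha chain is shown first by its sequences, because they set what the counts can tell. The table holds 3 copies of the NKT segment, Trav11, Trav11d and Trav11n, on chromosome 14 in the duplicated part of the alpha locus. RefSeq places them in GRCm38 (mm10), on the forward strand, at chr14:53519303-53519859, chr14:52824357-52824913 and chr14:53135122-53135678. In GENCODE (GRCm38) the coding sequences of Trav11 and Trav11d are identical over 342 bases, so a read inside them cannot tell them apart. Trav11n, which GENCODE lists as a pseudogene, differs from Trav11 at 8 of 343 positions, counted from the first coding base: C10T, C33T, T105C, C138G, C201A, G217C, T240C and A266G. The first 300 coding bases of both are printed 5′ to 3′ with these positions in capitals.
Trav11: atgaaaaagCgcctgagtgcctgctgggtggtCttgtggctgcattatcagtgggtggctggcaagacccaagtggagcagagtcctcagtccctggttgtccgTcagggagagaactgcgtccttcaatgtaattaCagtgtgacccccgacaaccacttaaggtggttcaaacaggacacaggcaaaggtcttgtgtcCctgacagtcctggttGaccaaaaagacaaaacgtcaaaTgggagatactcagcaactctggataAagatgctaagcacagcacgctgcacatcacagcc
Trav11n: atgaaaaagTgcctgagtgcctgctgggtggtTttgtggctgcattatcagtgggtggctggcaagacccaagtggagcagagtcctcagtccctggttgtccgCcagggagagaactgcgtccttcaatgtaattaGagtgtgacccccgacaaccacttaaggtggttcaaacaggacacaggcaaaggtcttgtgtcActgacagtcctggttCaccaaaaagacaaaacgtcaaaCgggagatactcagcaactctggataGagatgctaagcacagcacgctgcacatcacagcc

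The joining segment of the invariant chain, Traj18 (RefSeq GRCm38 chr14:54200777-54200842, forward strand), is printed because its reads are a second readout of the same chain. The capitals mark the conserved joining motif.
Traj18: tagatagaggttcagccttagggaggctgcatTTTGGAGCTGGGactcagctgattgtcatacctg

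Reads of identical copies were not shared out evenly. Among the Trav segments, 16 pairs, 32 segments in all, had identical coding sequences. In each of the 16 pairs the copy that comes first along the chromosome held most of the reads, from 92.2% to 100% of the pair with a median of 97.7%. In 7 pairs the second copy had no read at all, among them Trav6-6 beside 782 reads of Trav6d-6, and these 7 account for most of the 9 Trav segments at 0. Trav11d and Trav11 followed the same order, with 28804 and 1867 reads over the 8 libraries. Their ratio hardly moved, at 5.88 to 7.69 Trav11 reads per 100 Trav11d reads in every library. The level of 1 copy against its twin is therefore not reported as a use of that copy. Trav11, Trav11d and Trav11n are summed below where this is said. Values of Trav11d or Trav11 alone describe the reads assigned to that copy and not its use.

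**Figure D1:**
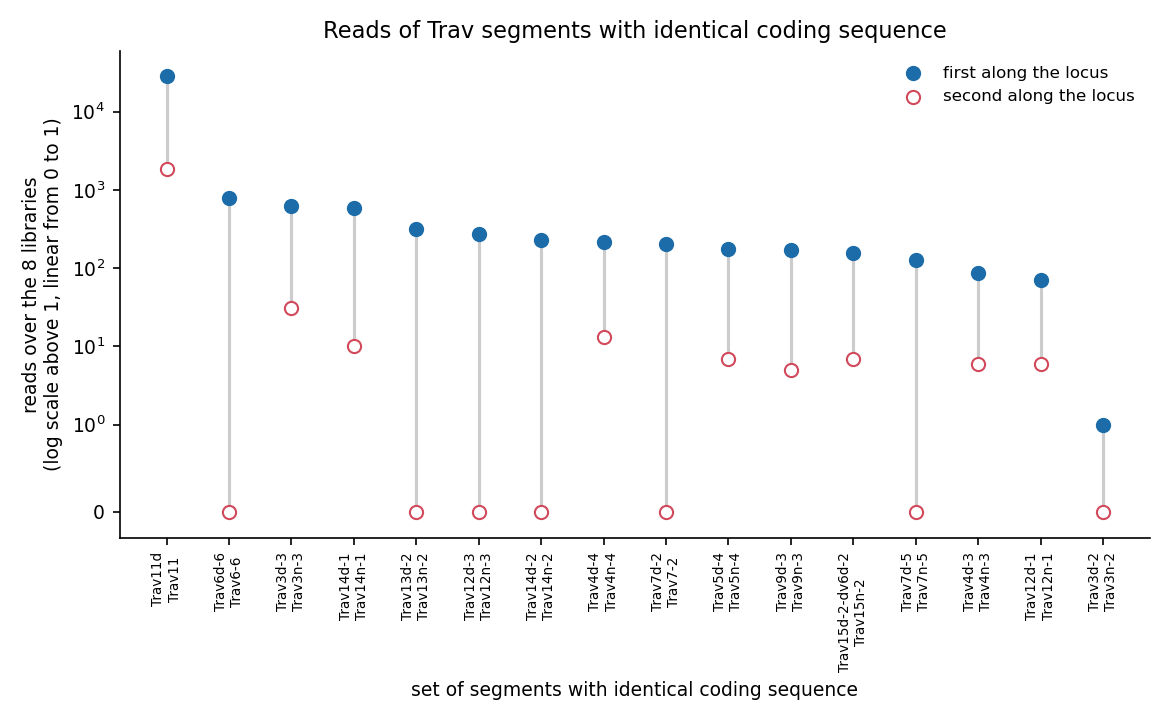
Reads over the 8 libraries (vertical axis, log scale above 1) of the 16 pairs of Trav segments with identical coding sequence (horizontal axis). Filled points are the first and open points the second copy along chromosome 14, and the first copy is higher in all 16 pairs, with 7 second copies at 0.

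The wider Trav family has the same limit. Of 114 Trav segments matched to GENCODE, 36 had no window of 50 bases that occurs in no other segment, whereas all 24 Trbv segments had such windows. The median share of unique windows was 27.5% for Trav and 100% for Trbv. Under 10% of the windows were unique in 40 of the Trav segments, Trav11 and Trav11d among them, and at least 10% in 74. Beta segments can thus be read one by one, as can alpha segments in so far as their reads fall in unique windows. How the authors' counting treated reads with several matching places is not given in the sources used here.

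Trav11d, the counted copy of the NKT segment, took most of the alpha reads in all 8 samples. In WT it held 66.3% of Trav reads in CD44- NK1.1- cells, 61.9% and 61.1% in the CD44+ NK1.1- replicates and 72.6% in CD44+ NK1.1+ cells. In Ezh2-KO the shares were 58.2%, 61.4%, 58.1% and 69.8% in the same order. The CD44+ NK1.1+ sample was the highest in each genotype. The 95% Wilson intervals, which cover counting error only, ran from 68.8% to 70.8% and from 71.7% to 73.5% in these 2 samples, above the upper bound of every other library (67.8% at most). Per kilobase of segment, Trav11d averaged 10497 reads a library, Trav11 680 and the next segment, Trav6d-6, 281.

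With its copies summed, the NKT segment averaged 69.8% of Trav reads in WT and 66.3% in Ezh2-KO libraries, a difference of -3.48 percentage points (exact two-sided permutation test within subsets, p = 0.167, adjusted over 6 such tests 0.333, where the smallest p this design allows is 0.0833). That smallest p lies above the threshold for a call, so no difference could have passed this test. The test therefore cannot decide whether the share differed between genotypes. With Trav11 counted alone, whose coding reads cannot be told from those of Trav11d, the sign turned, to 0.16 points.

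After the NKT segment the alpha reads were spread thinly. Trav6d-6, Trav14d-1, Trav3d-3, Trav6d-7 and Trav6d-3 followed with mean shares of 1.79%, 1.54%, 1.49%, 1.16% and 1.01%, and no further segment averaged 1%. Trav6n-5, Trav12d-2 and Trav13d-3 completed the 10 highest, with 0.908%, 0.886% and 0.835%. Without the Trav11 copies, the remaining reads were as even as 53.7 to 63.7 equally used segments would be (the exponential of the Shannon entropy), and the leading segment held only 5.02% to 7.44% of them. Trav6d-6, which starts the list, ends 1998 bases upstream of Trav11d, and had 2.16 to 3.54 reads per 100 of Trav11d in every library. Among the 74 segments with at least 10% unique windows, the 32 that lie between Trav11d and Trav11 had a median of 99.5 reads over all libraries, the 14 before Trav11d 77.5 and the 28 after Trav11 35.5.

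Trav1, the segment of mucosal-associated invariant T cells, stayed close to the limit of detection. It had 3, 4, 6 and 14 reads in the WT samples (CD44- NK1.1-, both CD44+ NK1.1- replicates, CD44+ NK1.1+) and 0, 3, 2 and 12 in the Ezh2-KO samples. The CD44+ NK1.1+ sample was the highest in each genotype. A count of 0 in the Ezh2-KO CD44- NK1.1- library allows up to 0.0758% of its Trav reads.

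The summed Trav level depended on the subset. In WT it was 180 CPM in CD44- NK1.1- cells, 248 and 212 CPM in CD44+ NK1.1- cells and 468 CPM in CD44+ NK1.1+ cells. In Ezh2-KO it was 181, 179, 175 and 420 CPM. Trac, the constant gene that every alpha chain carries, moved in step, at 545 to 763 CPM in the 6 NK1.1- libraries and 1394 and 1222 CPM in the NK1.1+ libraries. Per 100 Trac reads, every library had between 31.4 and 34.4 Trav reads. In bulk samples a change in the number of cells with a chain and a change in RNA per cell cannot be told apart.

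**Figure D2:**
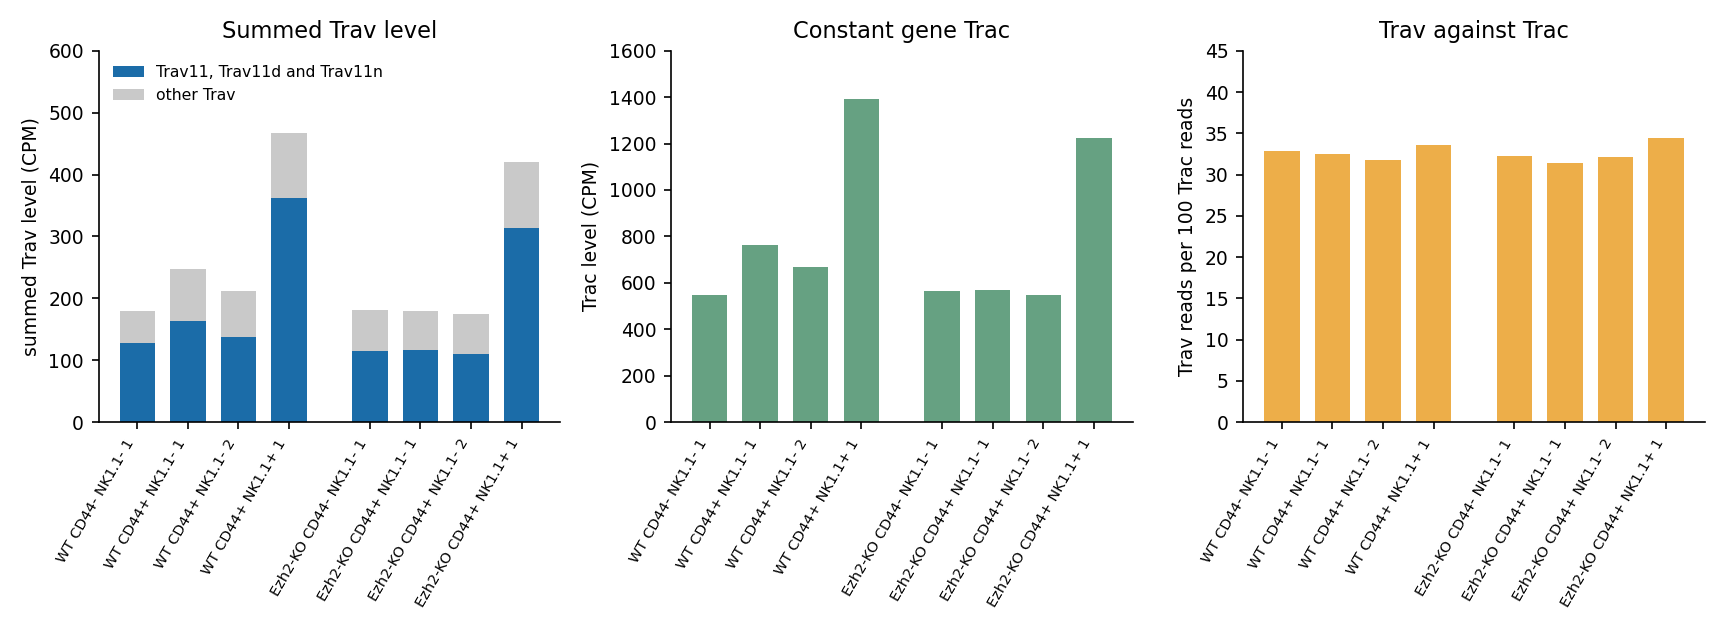
Summed Trav level (CPM, left, with the Trav11 copies in blue and all other Trav in grey), level of Trac (CPM, middle) and Trav reads per 100 Trac reads (right), a bar for each library. The NK1.1+ libraries stand above the others in the left and middle panels, and the right panel is nearly level at 31.4 to 34.4.

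Traj18 gave a second view of the invariant chain. It took 56.5% to 70.1% of all reads on alpha joining segments, and 16.9 to 19.2 of its reads were counted per 100 reads of the Trav11 copies in every library. This ratio thus stayed in a narrow range, though relative to its size a wider one than that of Trav against Trac. Its level rose in CD44+ NK1.1+ against CD44+ NK1.1- cells with a log2 change of 1.35 (SE 0.10, adjusted p 0.000714, edgeR), beside 1.37 (SE 0.10, adjusted p 0.000714) for Trav11d and 1.05 (SE 0.09, adjusted p 0.00101) for Trac.

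The beta chain is shown by 4 segments on chromosome 6 that carry most of its reads, printed so that their likeness can be seen. In RefSeq (GRCm38, forward strand) they lie at chr6:40891296-40891885 (Trbv1), chr6:41116036-41116468 (Trbv13-1), chr6:41121396-41121832 (Trbv13-2) and chr6:41130147-41130585 (Trbv13-3), each annotated as a variable segment. The first 300 coding bases in GENCODE (GRCm38) are printed. Trbv13-1, Trbv13-2 and Trbv13-3 form 1 subfamily (Vβ8 in the older naming), and capitals mark the bases at which Trbv13-1 and Trbv13-3 differ from Trbv13-2.
Trbv13-2: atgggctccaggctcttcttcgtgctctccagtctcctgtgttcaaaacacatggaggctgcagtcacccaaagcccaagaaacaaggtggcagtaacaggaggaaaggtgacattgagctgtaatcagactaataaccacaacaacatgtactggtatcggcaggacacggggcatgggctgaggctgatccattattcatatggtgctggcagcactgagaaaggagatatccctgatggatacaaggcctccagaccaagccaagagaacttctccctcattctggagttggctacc
Trbv13-1: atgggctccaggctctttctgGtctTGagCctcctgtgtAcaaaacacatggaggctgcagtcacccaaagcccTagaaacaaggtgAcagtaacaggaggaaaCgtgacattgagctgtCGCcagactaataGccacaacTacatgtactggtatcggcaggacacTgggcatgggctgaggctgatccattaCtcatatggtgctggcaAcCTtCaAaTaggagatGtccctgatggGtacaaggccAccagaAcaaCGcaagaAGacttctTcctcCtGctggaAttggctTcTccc
Trbv13-3: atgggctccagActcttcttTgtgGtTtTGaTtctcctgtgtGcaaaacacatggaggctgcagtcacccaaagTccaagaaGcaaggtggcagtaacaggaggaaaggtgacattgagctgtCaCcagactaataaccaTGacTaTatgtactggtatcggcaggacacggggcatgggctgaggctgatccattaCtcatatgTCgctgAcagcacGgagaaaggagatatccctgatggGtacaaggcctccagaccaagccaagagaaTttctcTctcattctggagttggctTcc
Trbv1: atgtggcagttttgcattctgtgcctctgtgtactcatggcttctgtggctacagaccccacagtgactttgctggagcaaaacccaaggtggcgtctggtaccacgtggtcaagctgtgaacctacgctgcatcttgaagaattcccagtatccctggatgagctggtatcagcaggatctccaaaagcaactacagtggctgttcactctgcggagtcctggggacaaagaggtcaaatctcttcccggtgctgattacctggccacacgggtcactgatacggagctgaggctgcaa

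Trbv13-1 was identical to Trbv13-2 at 88.7% of aligned bases and Trbv13-3 at 90.6%, while Trbv1, with 60.2%, is a distant relative. At least 99.7% of the windows of 50 bases in each of the 4 occurred in no other segment. Reads on these segments can therefore be told apart.

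Trbv13-2, the main beta segment of NKT cells, led the Trbv reads in 7 of the 8 libraries. In WT its share was 17.4% in CD44- NK1.1- cells, 42.1% and 43.6% in the CD44+ NK1.1- replicates and 45.7% in CD44+ NK1.1+ cells. In Ezh2-KO it was 42.3%, 33.2%, 33.3% and 40.5%. The exception was the WT CD44- NK1.1- library, and among CD44+ NK1.1- cells both Ezh2-KO replicates lay below both WT replicates. Shares of 1 total depend on each other. In these cells Trbv13-1 held 12.3% of it in both WT replicates and 27.3% and 27.4% in the Ezh2-KO replicates. The lower share of Trbv13-2 is therefore not read apart from that of Trbv13-1.

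Trbv1, another segment known from NKT receptors, held 62.9% of the Trbv reads in the WT CD44- NK1.1- library, 9024 of 14352 (95% Wilson interval 62.1% to 63.7%). It held 15.2%, 15.1% and 14.6% in the other WT libraries. In Ezh2-KO it held 23.3% in CD44- NK1.1-, 20.9% and 20.5% in CD44+ NK1.1- and 15.5% in CD44+ NK1.1+ cells. The high value was thus seen in 1 library, without a replicate, and not in the Ezh2-KO library of the same subset.

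Trbv13-1 was high in the CD44+ libraries of Ezh2-KO. Its share in WT was 5.70% in CD44- NK1.1-, 12.3% in both CD44+ NK1.1- replicates and 11.8% in CD44+ NK1.1+ cells. In Ezh2-KO it was 9.48%, 27.3%, 27.4% and 20.6%. The 3 CD44+ libraries of Ezh2-KO lay above every WT library, whereas the CD44- NK1.1- library lay inside the WT range. In CD44- NK1.1- cells the gap in share depended on Trbv1, which filled most of the WT total. With Trbv1 left out of the total, an alternative chosen after seeing the data, Trbv13-1 held 15.4% in WT and 12.4% in Ezh2-KO CD44- NK1.1- cells, and its level was 36.8 and 39.0 CPM.

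Trbv12-2 had 6.14% to 13.6% of the Trbv reads, and was above Trbv13-1 in the 4 WT libraries and in the Ezh2-KO CD44- NK1.1- library. Trbv13-3 had 2.40% to 6.30%. Trbv5 and Trbv4 averaged 1.62% and 1.06%, and Trbv19, Trbv15 and Trbv17 averaged 0.842%, 0.772% and 0.745%. Trbv31 held 0.557% to 1.22% in WT and 0.356% to 0.431% in Ezh2-KO libraries, and Trbv15 0.704% to 1.11% and 0.590% to 0.676%. Of the 24 segments, Trbv11 and Trbv18, both annotated as pseudogenes, had no read and Trbv21 had 6 in all. Trbv12-2 ends 2032 bases upstream of Trbv13-2 and had 26.2 to 35.3 reads per 100 of Trbv13-2 in every library. How many of the Trbv12-2 reads come from joined Trbv12-2 was not tested. Trbv12-1, which ends 1969 bases upstream of Trbv13-1, had 2.08 to 3.43 reads per 100 of Trbv13-1 in WT and 0.385 to 0.944 in Ezh2-KO.

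**Figure D3:**
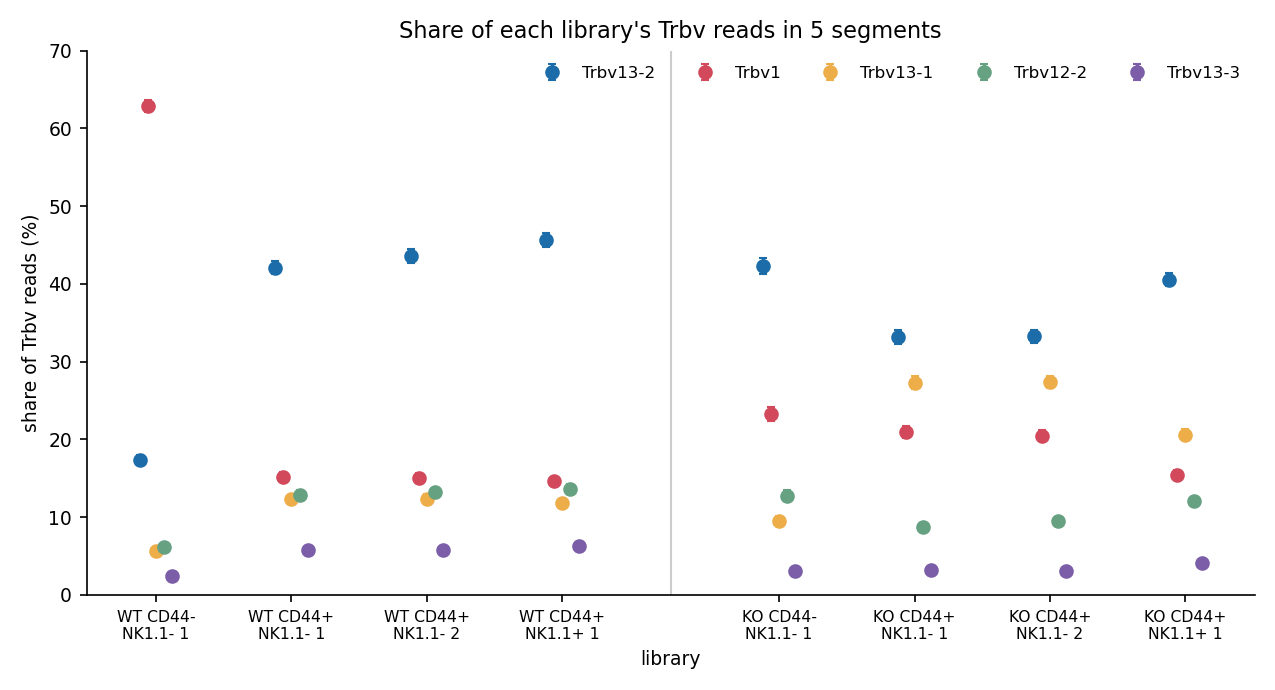
Share of each library's Trbv reads (percent, vertical axis) in 5 segments, with 95% Wilson intervals for counting error, for the WT (left) and Ezh2-KO (KO, right) libraries. Trbv1 (red) stands at 62.9% in the WT CD44- NK1.1- library, and Trbv13-1 (yellow) at 27.3%, 27.4% and 20.6% in the CD44+ libraries of Ezh2-KO.

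The WT CD44- NK1.1- library was looked at more closely, since every comparison with CD44- NK1.1- cells and every genotype comparison over the subsets rests on it. Its Trbv1 level was 406 CPM, against 75.1 to 113 CPM in the other 7 libraries. Its summed level of the other Trbv segments was 240 CPM, against 316 CPM in the Ezh2-KO library of the subset and 413 to 568 CPM in the CD44+ libraries. On the total without Trbv1, Trbv13-2 held 46.9% of its reads, beside 49.6%, 51.4% and 53.5% in the other WT libraries. On the same total Trbv13-1 held its 15.4% beside 14.5%, 14.5% and 13.8%. So apart from Trbv1 the proportions of these segments lay near those of the other WT samples, with Trbv13-2 slightly below them. Trav13-1, chosen after its values were seen, was also high in this library, with 85 reads or 2.13% of Trav reads (95% Wilson interval 1.72% to 2.62%), against 0.253% to 0.546% in the other 7.

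Biological replicates agreed closely in their segment use. For the WT CD44+ NK1.1- replicates, the chi-square of read counts per degree of freedom, which is near 1 when counting error alone separates libraries, was 1.18 over 60 Trav segments and 1.76 over 20 Trbv segments. For the Ezh2-KO replicates it was 1.19 over 50 Trav and 1.34 over 18 Trbv segments. Over all genes the same statistic was 44.7 in WT and 6.38 in Ezh2-KO, above counting error in both pairs. By the chi-square test the Trbv segments of the WT replicates differed by more than counting error (p = 0.0213). For the other segment values the p of this test was 0.157 to 0.168. The statistic grows with the number of reads, so segments with few reads could show little spread, and the value over all genes is not on a like footing.

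Loss of Ezh2 was compared first in CD44+ NK1.1- cells, the subset with replicates. Trbv13-1 rose and Trbv1 rose, Trbv13-3 and Trbv31 fell, and no Trav segment passed the test with edgeR, DESeq2 or limma-voom. The count was 4 of 90 segments tested (4.94% of all 13794 genes tested were called in this comparison, 3.78% higher and 1.16% lower), which is near that background. All 4 belong to the 21 Trbv segments tested. The count rose when either WT CD44+ NK1.1- replicate was left out and fell when either Ezh2-KO replicate was. The share of all genes called in those fits is not given here, so this is not read as a result about the segments. At an unadjusted p under 0.05 there were 13 of 69 Trav segments, 3 higher and 10 lower, and 16 of 21 Trbv segments, 2 higher and 14 lower. The share of all genes at that threshold is not given here, so these counts have no background to be read against. The median log2 change was -0.43 for Trav and -0.69 for Trbv segments, beside -0.01 for all genes tested.

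Trbv13-1 stood at 67.0 and 61.4 CPM in WT and 143 and 152 CPM in Ezh2-KO (means 64.2 ± 3.94 and 147 ± 6.47, SD, n = 2 each). The log2 change was 1.20 (SE 0.10, edgeR adjusted p 0.0032). It was called in 16 of 17 alternative settings and reached an adjusted p of 0.0541 without Ezh2-KO replicate 2.

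Trbv1 stood at 82.7 and 75.1 CPM in WT and 109 and 113 CPM in Ezh2-KO. The log2 change was 0.50 (SE 0.10, edgeR adjusted p 0.044). The call was lost with a minimum of 1 CPM in 2 libraries (adjusted p 0.0567), with limma-voom (0.056), and without Ezh2-KO replicate 1 (0.409) or 2 (0.5).

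Trbv13-3 went the other way, from 31.7 and 29.1 CPM in WT to 17.0 and 17.2 CPM in Ezh2-KO, a log2 change of -0.83 (SE 0.12, edgeR adjusted p 0.0173). It was not called without Ezh2-KO replicate 1 (adjusted p 0.279) or 2 (0.263). The 3 members of the Trbv13 subfamily therefore did not move together. Trbv31, which lies beyond the constant genes at the far end of the locus, had 6.63 and 4.69 CPM in WT and 1.86 and 2.39 CPM in Ezh2-KO, a log2 change of -1.41 (SE 0.27, edgeR adjusted p 0.0407). Its call was lost with DESeq2 (adjusted p 0.133), limma-voom (0.0634), a minimum of 1 CPM in 2 libraries (0.0536) and without Ezh2-KO replicate 1 (0.377) or 2 (0.235).

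The leading NKT segments did not pass the test. Trbv13-2 stood at 229 and 218 CPM in WT and 173 and 184 CPM in Ezh2-KO, with a log2 change of -0.32 (SE 0.09, edgeR adjusted p 0.122). Trav11d stood at 153 and 129 CPM in WT and 110 and 102 CPM in Ezh2-KO, with a log2 change of -0.42 (SE 0.12, edgeR adjusted p 0.113). Neither pair of groups overlapped, which groups of 2 libraries can do without a change. Trav11, Trav11n and Trav1 had log2 changes of -0.30 (adjusted p 0.339), -1.36 (0.272) and -0.89 (0.55). The summed level of the Trav11 copies was 163 and 138 CPM in WT and 117 and 109 CPM in Ezh2-KO, and that of all other Trav segments 84.4 and 73.6 CPM and 62.2 and 65.9 CPM. When reads were scaled by the total of the family in place of all genes, Trav11d had a log2 change of -0.04 and Trav11 of 0.07. The Trav11 copies are the larger part of that total, which holds their value on this scale near 0. On that scale Trav9d-4 (1.53, adjusted p 0.0414) and Trbv12-2 (-0.52, adjusted p 0.043) joined the 4 calls.

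**Figure D4:**
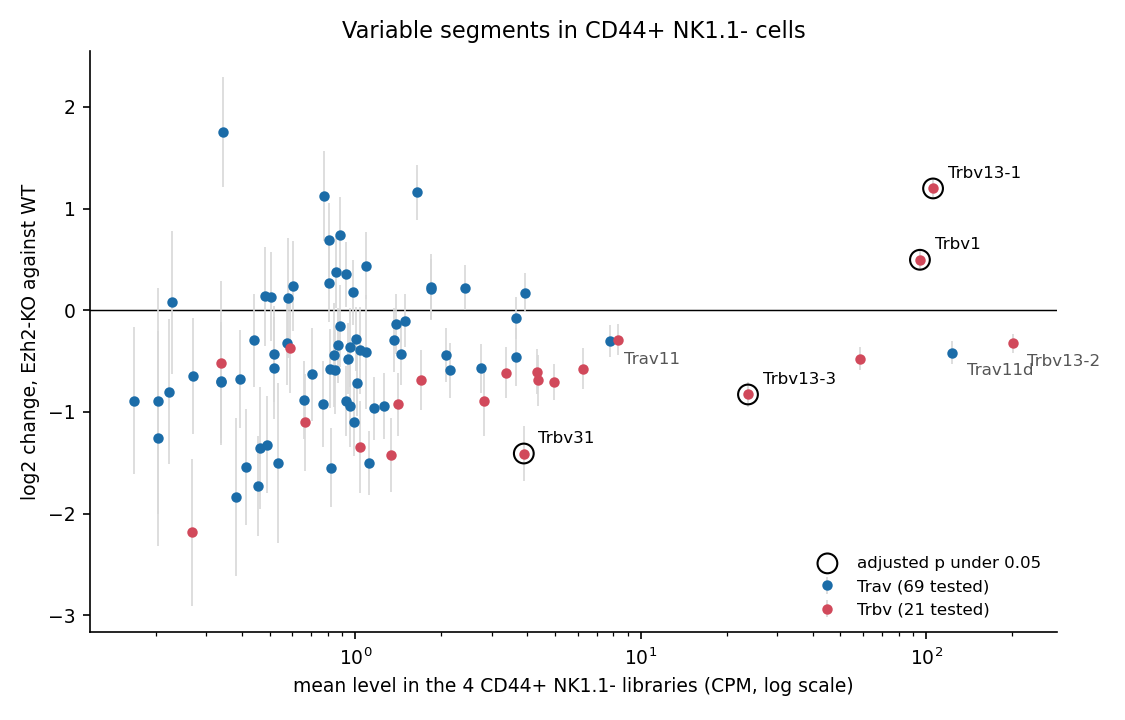
Log2 change of Ezh2-KO against WT in CD44+ NK1.1- cells (vertical axis, bars 1 SE) by mean level over these 4 libraries (CPM, log scale) for the 69 Trav and 21 Trbv segments tested. Circles mark the 4 with an adjusted p under 0.05, Trbv13-1 at 1.20 and Trbv1 at 0.50 above the line, Trbv13-3 at -0.83 and Trbv31 at -1.41 below it.

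Gamma-delta receptor and regulator genes moved in the same comparison, in which 3.78% of all genes tested were called higher and 1.16% lower. Of 14 tested markers on that list 8 rose and none fell, among them Trdc, the delta constant gene, by 2.03 (SE 0.23, edgeR adjusted p 0.00855), and the gamma segment Trgv5 by 3.08 (SE 0.15, edgeR adjusted p 0.000514). Their median log2 change was 0.93, beside -0.01 for all genes tested. Their summed level ranged from 793 to 1384 CPM in WT and 1437 to 1890 CPM in Ezh2-KO libraries. Trdv1 and Trdv4 had at most 4 reads in a library. Of 8 tested markers of double positive thymocytes none was called by edgeR (at an unadjusted p under 0.05, Themis higher and Cd8b1 lower), and their median log2 change was -1.15, in the direction of the Trav median of -0.43. Rag1, of the recombinase, stood at 18.0 and 3.78 CPM in WT and 4.34 and 0.450 CPM in Ezh2-KO, and Dntt, which adds bases at the joins, at 30.9 and 9.42 CPM and 8.78 and 0.810 CPM. WT replicate 1 was the highest and Ezh2-KO replicate 2 the lowest for both genes, and the genotypes overlapped for Rag1. Between CD44+ NK1.1+ and CD44+ NK1.1- cells the markers of double positive thymocytes had a median of 0.65, with none called higher and Themis called lower. Of all genes tested there, 16.4% were called higher and 16.1% lower. The part of either kind of cell in the segment changes was not tested.

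Over the 3 subsets, in a model that adds a subset and a genotype effect, 10 of 90 segments were called (11.3% of all genes tested were, 6.43% higher and 4.89% lower), 3 of them higher and 7 lower. Trbv13-1 rose by 0.86 on the log2 scale (SE 0.18, adjusted p 0.0271, edgeR). Trbv13-3 fell by 0.62 (SE 0.10, adjusted p 0.00967, edgeR), Trbv31 by 1.08 (SE 0.22, adjusted p 0.0211) and Trbv15 by 0.63 (SE 0.16, adjusted p 0.0396). Trbv13-3 was lower in Ezh2-KO in each subset, with 15.5 against 12.6 CPM in CD44- NK1.1- and 39.8 against 27.7 CPM in CD44+ NK1.1+ cells.

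In the alpha family 2 segments of low level rose, Trav6-4 by 1.65 (SE 0.35, edgeR adjusted p 0.0231) and Trav12-1 by 1.34 (SE 0.28, edgeR adjusted p 0.0224). Trav12-1 stood at 0.495, 0.676, 0.301 and 1.21 CPM in WT (CD44- NK1.1-, both CD44+ NK1.1- replicates, CD44+ NK1.1+) and at 1.74, 1.05, 1.08 and 2.97 CPM in Ezh2-KO. Trav7-5 fell by 1.53 (SE 0.31, edgeR adjusted p 0.0187) and Trav11d by 0.30 (SE 0.08, edgeR adjusted p 0.0442). The call of Trav11d held in 6 of 16 alternatives and was lost when reads were scaled by the alpha total, of which it is the larger part (adjusted p 0.386). Trbv13-2 (-0.03, SE 0.15) and Trbv1 (-0.19, SE 0.51) were not called, and the value of Trbv1 turned to 0.38 (adjusted p 0.0431) without the WT and 0.39 (adjusted p 0.0435) without the Ezh2-KO CD44- NK1.1- library. None of the 10 calls was made without Ezh2-KO CD44+ NK1.1- replicate 1 or without replicate 2, where the model had fewer samples.

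The genotype effect on Trbv1 was called different between subsets, with 1 CD44- NK1.1- library per genotype. The effect in CD44+ NK1.1- minus that in CD44- NK1.1- cells was 2.58 on the log2 scale (SE 0.17, adjusted p 0.0276, edgeR), and it was the only one of 90 segments called by edgeR (0.0217% of all genes tested were), where DESeq2 called 3 and limma-voom 1. Trbv1 had 406 CPM in the WT and 95.7 CPM in the Ezh2-KO library of CD44- NK1.1- cells, so the difference rests on the 1 high library. The call was lost without either Ezh2-KO CD44+ NK1.1- replicate, with a minimum of 1 CPM in 2 libraries, and with reads scaled by the total of the family. For Trbv13-1 the same difference was 1.11 (SE 0.17, edgeR adjusted p 0.183), with 36.8 CPM in WT and 39.0 CPM in Ezh2-KO CD44- NK1.1- cells. Against CD44+ NK1.1+ cells no segment's effect was called different by edgeR, DESeq2 or limma-voom, and edgeR called 0% of all genes. At an unadjusted p under 0.05 in edgeR there were 5 of 90 segments, with no share of all genes at that threshold beside them. Trbv13-1 stood at 74.6 CPM in WT and 139 CPM in Ezh2-KO CD44+ NK1.1+ cells.

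Between CD44+ NK1.1- and CD44- NK1.1- cells, as the mean over both genotypes, 4 of 90 segments were called, 3 higher and 1 lower (2.66% of all genes tested were, 1.59% higher and 1.07% lower). Trbv13-1 rose by 1.36 (SE 0.09, edgeR adjusted p 0.0019), Trbv13-3 by 0.71 (SE 0.11, edgeR adjusted p 0.0283) and Trbv13-2 by 0.52 (SE 0.08, edgeR adjusted p 0.0336), while Trbv1 fell by 1.07 (SE 0.08, edgeR adjusted p 0.00296). All 3 members of the Trbv13 subfamily thus rose as a mean over both genotypes, but so did most Trbv segments. Of the 21 tested, 17 had a log2 change above 0 and 4 below, with a median of 0.52. Trbv13-1 had log2 changes of 0.80 (edgeR adjusted p 0.0389) in WT alone and 1.91 (edgeR adjusted p 0.00749) in Ezh2-KO alone. There the CD44- NK1.1- side is 1 library, which is assumed to vary like the CD44+ NK1.1- replicates. The other 3 were not called in Ezh2-KO alone, where Trbv1 had a log2 change of 0.22 (adjusted p 0.869) and Trbv13-2 of 0.04 (0.997). No Trav segment was called by edgeR, DESeq2 or limma-voom. At an unadjusted p under 0.05 in edgeR there were 9 of 69, all higher in CD44+ NK1.1- cells, again without a share of all genes beside them. The count of 4 rose without either WT CD44+ NK1.1- replicate and fell without either Ezh2-KO replicate, with no share of all genes beside these fits.

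Between CD44+ NK1.1+ and CD44+ NK1.1- cells, 15 of 90 segments were called, 13 higher and 2 lower, in a comparison where 32.5% of all genes tested were called, 16.4% higher and 16.1% lower. The share of segments was below that background. The count rose without either WT CD44+ NK1.1- replicate, fell without either Ezh2-KO replicate, and was 6 with DESeq2. The share of all genes called in these settings is not given here. Trav11d rose from 153, 129, 110 and 102 CPM in the NK1.1- libraries to 340 and 294 CPM in the NK1.1+ libraries, and Trav11 rose with a log2 change of 1.39 (SE 0.13, edgeR adjusted p 0.00126). Trav6d-6, Trav13d-2 and Trav13d-1 rose by 1.08, 1.14 and 1.13. In the beta family Trbv13-2 rose by 0.49 (SE 0.08, edgeR adjusted p 0.00733), Trbv12-2 by 0.53 (SE 0.10, adjusted p 0.0104) and Trbv13-3 by 0.54 (SE 0.10, adjusted p 0.0108). Trbv1 did not pass the test at 0.06 (SE 0.08, edgeR adjusted p 0.594). Trav1 rose by 1.96 (SE 0.48, edgeR adjusted p 0.0259) from 2 to 6 reads a library to 12 and 14. Its call was lost with reads scaled by the family total (0.84, edgeR adjusted p 0.241). It was also not called in either genotype alone or without either Ezh2-KO CD44+ NK1.1- replicate. Its share of Trav reads was 0.144% in both NK1.1+ libraries and 0.0513% to 0.122% in the CD44+ NK1.1- libraries.

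The Trav11 copies and the rest of the alpha family were not higher to the same degree. The copies summed to 109 to 163 CPM in the 4 NK1.1- and to 362 and 314 CPM in the 2 NK1.1+ libraries, and all other Trav segments to 62.2 to 84.4 CPM and to 106 CPM in both. When reads were scaled by the family total, of which the Trav11 copies are the larger part, no segment was higher and 9 were lower, and the log2 change of Trav11d was 0.23 (adjusted p 0.0634), of Trav11 0.25 (0.18) and of Trbv13-2 0.19 (0.103). The median log2 change of the 69 Trav segments moved from 0.61 to -0.51, and that of the 21 Trbv segments from 0.24 to -0.06. Trav14d-1, with 3.70, 3.70, 4.05 and 4.28 CPM in NK1.1- and 2.75 and 2.31 CPM in NK1.1+ libraries, fell on both scales (-0.64, adjusted p 0.0374, and -1.78, adjusted p 0.00208, edgeR). Trav14d-3-dv8, named after its values were seen, also fell on both (-1.01, adjusted p 0.0317, and -2.15, adjusted p 0.00363, edgeR). Both calls on the scale of all genes were lost with DESeq2 (adjusted p 0.328 and 0.259).

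**Figure D5:**
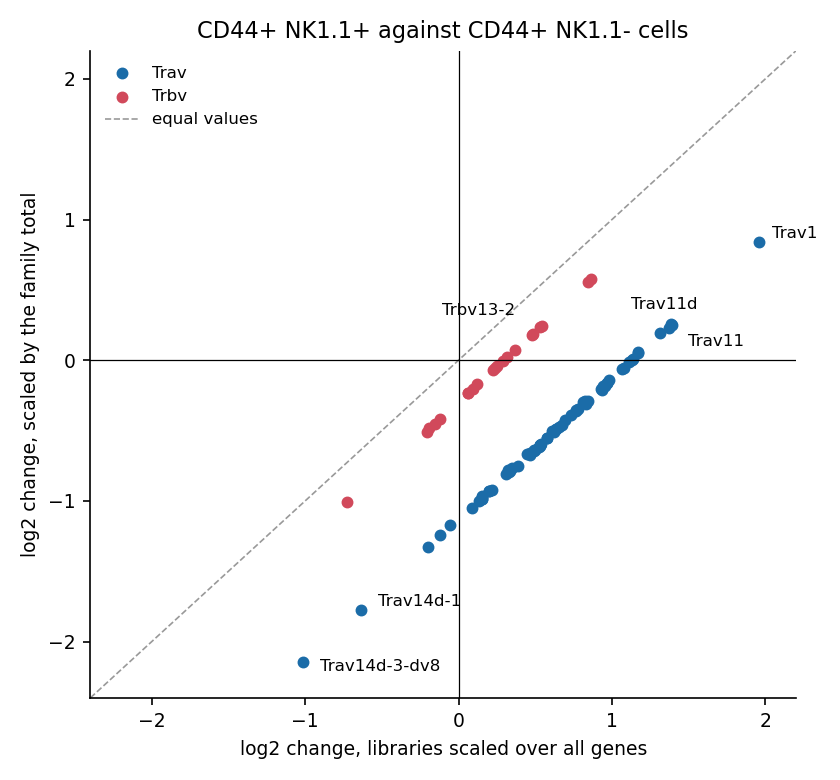
Log2 change of CD44+ NK1.1+ against CD44+ NK1.1- cells for the 90 segments tested, with libraries scaled over all genes (horizontal axis) and by the total of the segment's family (vertical axis). The points lie below the dashed line of equal values, and Trav11d moves from 1.37 to 0.23.

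The other genes of the receptor were counted by lists. Of all genes tested, edgeR called 16.4% higher and 16.1% lower in CD44+ NK1.1+ against CD44+ NK1.1- cells. In Ezh2-KO against WT CD44+ NK1.1- cells it called 3.78% higher and 1.16% lower. Of 3 constant genes, Trac alone rose in CD44+ NK1.1+ cells, and Trbc1 and Trbc2 had log2 changes of 0.01 and 0.02. Of 27 alpha joining segments tested, 7 rose in that comparison and none fell, with a median log2 change of 1.005. Of 14 beta joining and diversity segments tested, 2 rose in Ezh2-KO CD44+ NK1.1- cells, Trbj1-2 by 0.85 (SE 0.15, edgeR adjusted p 0.0333) and Trbd2 by 0.61. Trbj1-2 took 20.5% of Trbj reads in the WT CD44- NK1.1- library, 8.48% to 9.31% in the other WT libraries and 16.7% to 20.4% in Ezh2-KO. Of the 4 CD3 chains that carry the receptor's signal, Cd247 rose in Ezh2-KO CD44+ NK1.1- cells by 0.82. None of 14 recombination genes, among them Rag1, Rag2 and Dntt, was called there by edgeR, and 1 rose and 2 fell in CD44+ NK1.1+ cells.

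Over the 4 libraries of each genotype, summed levels and shares of NKT segments were compared by the exact two-sided permutation test within subsets. The smallest p this design allows, 0.0833, lies above the threshold for a call, so no difference could have passed. These tests therefore cannot decide whether the genotypes differed. The share of Trbv reads in Trbv13-2 averaged 37.2% in WT and 37.3% in Ezh2-KO (exact p = 1), and that in Trbv1 26.9% and 20.03% (exact p = 1). Both differences change sign without either CD44- NK1.1- library, to -8.15 and 4.003 percentage points. The share in Trbv13-2 and Trbv1 together was 64.1% in WT and 57.3% in Ezh2-KO, a difference of -6.78 points at an exact p = 0.0833, the smallest p the design allows (adjusted over the 6 tests 0.333). Summed Trav and Trbv levels differed by -0.22 (exact p = 0.167) and -0.12 (exact p = 0.917) on the log2 scale.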

How the data were processed

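RNA was measured by sequencing in 8 libraries. An RNeasy kit was used for extraction and a TruSeq kit for the libraries, per the labels' protocols, and each RNA was run on 4 lanes. The authors deposited unnormalized counts of reads per gene. Per the submitters' processing notes the authors used CASAVA, Subread 1.4.3-p1 and featureCounts with mouse build mm10. The annotation, strand setting and treatment of reads with several matches are each not given in the sources used here. Symbols came from a RefSeq table of GRCm38, in which 165 symbols start with Trav or Trbv, 140 of them in the count table. Sequences came from GENCODE (GRCm38).

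Counts were tested over all genes with edgeR 4.0.16 in R 4.3.3 (filterByExpr, TMM, glmQLFit with robust=TRUE, quasi-likelihood F test), with Benjamini-Hochberg adjustment over 13794 genes and a threshold of 0.05. A model of 6 group means left 2 residual degrees of freedom, all from the CD44+ NK1.1- replicates, so that groups of 1 library are assumed to vary like them, and an additive model of subset and genotype left 4. Subset comparisons are means over both genotypes. CPM are scaled by TMM, and a share is a segment's reads over all reads of its family's segments analysed here. Shares have Wilson intervals, and a count of 0 a limit of 3 counts, for counting error only. Reads carry no molecular identifiers. Scripts were tested on simulated data.

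Segments were named by a rule: Trav11 and its copies, Trbv13-2, Trbv1, Trav1, the 10 highest of each family by mean share, and up to 8 called segments a comparison. The members, lists and tests were chosen with earlier results of these data known. Alternatives were DESeq2 1.42.0, limma-voom (limma 3.58.1), other scalings and filters, robust=FALSE, single genotypes and each library left out.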

Additional observations from a re-analysis of the deposited data

Results flagged for a closer look

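The genotype effect on Trbv1 was called different between subsets: the log2 change in CD44+ NK1.1- cells minus that in CD44- NK1.1- cells was 2.58 (edgeR adjusted p 0.0276, interaction term). The call was made in 10 of 14 alternative settings, and CD44- NK1.1- cells have 1 library per genotype. The value rests on the WT CD44- NK1.1- library, in which Trbv1 had 9024 reads against 1747 to 2519 in the other 7.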

How the results depend on the processing

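No paired analysis was possible because the labels give no replicate numbers. Counts of called segments depended on single libraries, and leaving one out also leaves fewer samples. The share of all genes called in each alternative setting is not given here, so the counts below are not read as results about the segments. With each library left out in turn, the count ranged from 0 to 33 for Ezh2-KO against WT in CD44+ NK1.1- cells (4 in full), from 0 to 7 over the 3 subsets (10), from 2 to 25 for CD44+ NK1.1- against CD44- NK1.1- cells (4) and from 2 to 40 for CD44+ NK1.1+ against CD44+ NK1.1- cells (15). Without WT CD44+ NK1.1- replicate 1 these counts were 16, 7, 17 and 40, and without WT replicate 2 they were 33, 3, 25 and 27. Without Ezh2-KO CD44+ NK1.1- replicate 1 they were 1, 0, 2 and 2, and without Ezh2-KO replicate 2 they were 0, 0, 2 and 3. Over the 3 subsets the count was 3 without either CD44+ NK1.1+ library, 6 without the WT and 5 without the Ezh2-KO CD44- NK1.1- library. The first count was 2 with a minimum of 1 CPM in 2 libraries and 2 with limma-voom, and the second 6 with that minimum. The third was 1 in Ezh2-KO alone. The fourth was 6 with DESeq2, 9 with family totals, 2 in WT alone and 8 in Ezh2-KO alone. The other settings of tool, scaling and filter kept each count within 1.5 times.

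Some log2 changes turned sign, and the cause was not tested. With family totals, Trav11 turned to 0.068 and 0.056 in the genotype comparisons (one subset and 3), Trbv13-2 to 0.078 over the 3 subsets, and Trav11d to -0.035 against CD44- NK1.1- cells. On that scale the called rises in CD44+ NK1.1+ cells of Trav7d-4, Trav6d-6, Trav12d-3 and Trav13-1 became -0.17, -0.053, -0.20 and -0.013, and Trbv1 went to -0.23. With library size alone, Trbv13-2 turned to 0.012 over the 3 subsets and Trbv1 to -0.072 in CD44+ NK1.1+ cells. In Ezh2-KO alone Trbv1 was -0.10 in CD44+ NK1.1+ cells, and against CD44- NK1.1- cells its called change of -1.07 became 0.22 and that of Trav11n, not called, became -1.09. In WT alone Trav11 was 0.14 there. With each library left out, the change over the 3 subsets ranged from -0.73 to 0.14 for Trav11n, from -0.40 to 0.39 for Trbv1 and from -0.25 to 0.057 for Trbv13-2, and that of Trav11 against CD44- NK1.1- cells from -0.093 to 0.0042.

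The genotype difference in the share of Trbv13-2 ranged from -8.15 to 3.64 points with each library left out and was -3.62 points with Trbv1 left out of the total, an alternative chosen after seeing the data. That of Trbv1 ranged from -11.1 to 4.003 points and that of summed Trbv from -0.19 to 0.060. With Trav11 alone the alpha share differed by 0.16 points. Depth limits segments with few reads, such as Trav1 and Trav11n, and the CD44- NK1.1- and CD44+ NK1.1+ groups have 1 library per genotype.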
